A study of Homo sapiens with 16 samples.

Results

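The genes described here were 44 members of the TGF-β and BMP signaling pathways, chosen by symbol, and all 44 were found among the 34228 genes of the count table. They comprised 7 TGF-β ligands and latent TGF-β binding proteins, 8 activin, BMP and GDF ligands, 10 receptors and co-receptors, 3 antagonists, 6 receptor-regulated and common SMADs, 6 inhibitory SMADs, corepressors and SMURF ubiquitin ligases, and 4 ID genes. TGF-β family ligands are secreted dimers that bring type II and type I receptor kinases together on the cell surface, and the active type I receptor phosphorylates receptor-regulated SMAD proteins. TGF-β and activins act mainly through SMAD2 and SMAD3, BMPs act through SMAD1, SMAD5 and SMAD9, and both branches share SMAD4 on the way to the nucleus. In melanoma, TGF-β signaling is known for its ties to undifferentiated, invasive cells, and the ID genes are classic targets of BMP signaling.

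The libraries came from a pair of human melanoma lines, 451Lu-R, which is high in MITF and low in AXL (MITFhi/AXLlo), and 1205Lu-R, the reverse (MITFlo/AXLhi), both made resistant to BRAF inhibitors by growth in rising doses of PLX4032 (vemurafenib). The cells of the 8 libraries used here, 2 per group, had received 2.5 μM corin or its vehicle DMSO for 24 hours, without PLX4032 in their labeled treatment. Corin is a dual inhibitor of the CoREST repressor complex that targets the deacetylases HDAC1 and HDAC2 and the demethylase LSD1, and the comparison asks which transcripts change when that complex is inhibited. The series has 8 further libraries, with PLX4032 or with PLX4032 plus corin, that were not analysed here. The sources used here do not say whether the libraries of a group came from separate cultures, so the p-values measure the spread between these libraries, which may be technical.

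Libraries held between 9516687 and 11797788 estimated counts, and 12867 to 14427 genes reached 1 CPM, the unit used here for counts after scaling by library total and TMM factor. Melanocytic markers (MITF, SOX10, PMEL, MLANA, TYR, DCT and TYRP1) summed to about 1.26e+04 CPM in 451Lu-R with DMSO and 1.18e+04 CPM with corin, but to 7.51 to 8.74 and 16.3 to 18.7 CPM in 1205Lu-R, where SOX10 and TYR were at 0 in every library and TYRP1 in both DMSO libraries. By RNA, 1205Lu-R therefore lacked most markers of its melanocytic origin. In 451Lu-R 6 of the 7 markers fell, among them SOX10 by 1.60 (adjusted p = 6.75e-21, edgeR) and MITF by 1.37 (adjusted p = 2.44e-20) on the log2 scale, while DCT rose by 0.78 (adjusted p = 3.65e-19). The sum of endothelial markers was higher with corin in both lines through KDR and VWF, going from 8.67 to 10.3 CPM up to 73 to 75.7 CPM in 451Lu-R, where PECAM1 stayed at 0, and from 11.6 to 12.1 CPM up to 45.5 to 50.7 CPM in 1205Lu-R, where PECAM1 fell from 9.39 and 10.1 CPM to 8.41 and 5.89 CPM (-0.45, adjusted p = 0.0185, edgeR). Leukocyte markers, mostly CD68, summed to 62.3 to 63.9 CPM with DMSO and 93 to 94.1 CPM with corin in 451Lu-R, and to 10.2 to 10.6 and 12.9 to 14.3 CPM in 1205Lu-R. Keratinocyte markers summed to 20.1 to 20.2 and 17.3 to 21.2 CPM in 451Lu-R, and to 33.7 and 29.8 to 30.7 CPM in 1205Lu-R. The samples are cell lines, so these markers serve only as a check of the label and are not read as other cell types. What lies behind their changes was not tested. In RNA from whole cultures, fewer cells of a kind and less RNA per cell cannot be told apart.

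Promoter sequences were available for 40 of the 44 members in RefSeq (GRCh38.p14), but not for BMP2, BMP7, NOG and SKI. The 250 bases before the first listed start were searched on both strands for CAGAC, a SMAD-binding element with its flank, GGCGCC, a GC-rich element known from BMP-responsive promoters, TGANTCA, the AP-1 site, and CAGGTG, the E-box bound by the SNAI and ZEB repressors. CAGAC occurred in 16 of 40 members (40%) and in 37.8% of all 27305 promoters. GGCGCC occurred in 12 members (30%) and in 16.1% of all promoters. TGANTCA was present in 1 member, SMAD1 (2.5%, against 6.6% of all promoters), and CAGGTG in LTBP3 and SMURF2 (5%, against 17.5%). A match is a string of letters and no evidence of binding, and no match says only that these letters are not in the window. Printed here, 5′ to 3′ on the strand of the gene and with matches in capitals, are the promoters of 3 ID genes and 2 BMP ligands that rose in both lines, and of SMAD3, which moved in opposite directions. They lie at chr20:31605039-31605288 (ID1, plus strand), chr1:23559502-23559751 (ID3, minus strand), chr6:19837120-19837369 (ID4, plus strand), chr14:53955051-53955300 (BMP4, minus strand), chr6:7725849-7726098 (BMP6, plus strand) and chr15:67065352-67065601 (SMAD3, plus strand).
ID1: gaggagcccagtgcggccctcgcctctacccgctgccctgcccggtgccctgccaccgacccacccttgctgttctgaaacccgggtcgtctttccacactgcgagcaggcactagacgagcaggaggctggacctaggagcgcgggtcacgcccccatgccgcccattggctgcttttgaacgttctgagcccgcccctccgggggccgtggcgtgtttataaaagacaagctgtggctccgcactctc
ID3: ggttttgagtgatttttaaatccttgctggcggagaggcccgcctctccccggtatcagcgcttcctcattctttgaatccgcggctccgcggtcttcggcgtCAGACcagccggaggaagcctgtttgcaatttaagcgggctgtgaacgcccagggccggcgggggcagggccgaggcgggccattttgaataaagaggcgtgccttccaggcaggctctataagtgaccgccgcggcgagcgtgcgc
ID4: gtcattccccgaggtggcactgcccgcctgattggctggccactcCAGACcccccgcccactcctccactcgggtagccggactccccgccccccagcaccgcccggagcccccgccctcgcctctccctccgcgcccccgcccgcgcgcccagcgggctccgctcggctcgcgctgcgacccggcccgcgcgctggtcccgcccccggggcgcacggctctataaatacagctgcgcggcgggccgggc
BMP4: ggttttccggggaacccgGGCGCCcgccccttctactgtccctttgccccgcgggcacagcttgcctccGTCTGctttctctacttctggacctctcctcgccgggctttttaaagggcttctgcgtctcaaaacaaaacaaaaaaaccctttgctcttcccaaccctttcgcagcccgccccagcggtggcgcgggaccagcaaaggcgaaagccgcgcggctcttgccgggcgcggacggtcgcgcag
BMP6: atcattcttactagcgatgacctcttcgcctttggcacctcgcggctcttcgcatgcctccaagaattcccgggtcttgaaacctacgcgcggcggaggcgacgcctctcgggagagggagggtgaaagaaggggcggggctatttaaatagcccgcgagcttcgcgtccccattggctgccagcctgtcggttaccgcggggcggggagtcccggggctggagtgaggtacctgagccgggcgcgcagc
SMAD3: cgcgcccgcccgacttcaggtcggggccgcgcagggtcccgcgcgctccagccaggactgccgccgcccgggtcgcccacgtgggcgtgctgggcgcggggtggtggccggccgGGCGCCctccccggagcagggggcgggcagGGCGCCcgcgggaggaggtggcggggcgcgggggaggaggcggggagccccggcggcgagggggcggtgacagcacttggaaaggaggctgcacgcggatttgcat
ID3 and ID4 each carried CAGAC, 147 to 143 and 205 to 201 bases before the start. BMP4 carried GGCGCC 232 to 227 bases before its start and CAGAC on the other strand (printed as GTCTG) 181 to 177 bases before it. SMAD3 held GGCGCC at 136 to 131 and at 106 to 101 bases before the start. The windows of ID1 and BMP6 held none of the 4 strings.

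Most members were higher with corin in both lines, and the activin, BMP and GDF ligands and the ID genes were so without exception. Among these, INHBA, INHBB, BMP2 and BMP4 in 451Lu-R and ID4 in 1205Lu-R were tested only through their corin libraries. Their rise was therefore fixed by the filter. BMP4 in 1205Lu-R had 8 and 18 counts with DMSO, and those libraries alone would not have passed the filter either. In 451Lu-R, 30 of the 43 members tested rose and 6 fell at an adjusted p under 0.05, and 7 did not pass (edgeR quasi-likelihood test, 2-sided, adjusted over all genes tested). Of all genes tested in 451Lu-R, 41.3% rose and 38.6% fell. In 1205Lu-R, 28 of 44 members rose, 10 fell and 6 did not pass, where 40.4% of all genes rose and 37.8% fell. With a change of 2-fold or more in addition, 16 members rose and 1 fell in 451Lu-R (background, 22.2% and 13.3% of genes), and 15 rose and 0 fell in 1205Lu-R (22% and 9.8%). That count of 0 was also 0 with DESeq2, but 2 without the filter on low counts, 2 without corin replicate 2 and 1 without DMSO replicate 2 of 1205Lu-R. At a 4-fold change and an adjusted p under 0.001, 7 members rose in 451Lu-R (12.4% of all genes rose and 2.72% fell) and 10 in 1205Lu-R (11.3% and 1.43%), and none fell by that much. The median log2 fold change of the members was 0.82 in 451Lu-R and 0.54 in 1205Lu-R, against 0.03 for all genes tested in either line. Members with fewer than 10 counts in every DMSO library had to differ to be tested at all: without INHBA, INHBB, BMP2 and BMP4 in 451Lu-R, 26 of 39 rose and 6 fell, and without TGFB2 and ID4 in 1205Lu-R, 26 of 42 rose and 10 fell. By 2-fold or more 12 of these 39 members rose and 1 fell, and of the 42 members 13 rose and 0 fell. Among all genes with 10 counts or more in a DMSO library of 451Lu-R, 14.7% rose by that much and 14.7% fell. For 1205Lu-R the matching shares were 14.8% risen and 10.8% fallen. At 4-fold and an adjusted p under 0.001, 3 of the 39 (7.69%) and 8 of the 42 (19%) rose, where 4.98% and 4.91% of all genes with 10 counts or more in a DMSO library of the line did so. BMP4 in 1205Lu-R stayed among the 42.

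**Figure D1:**
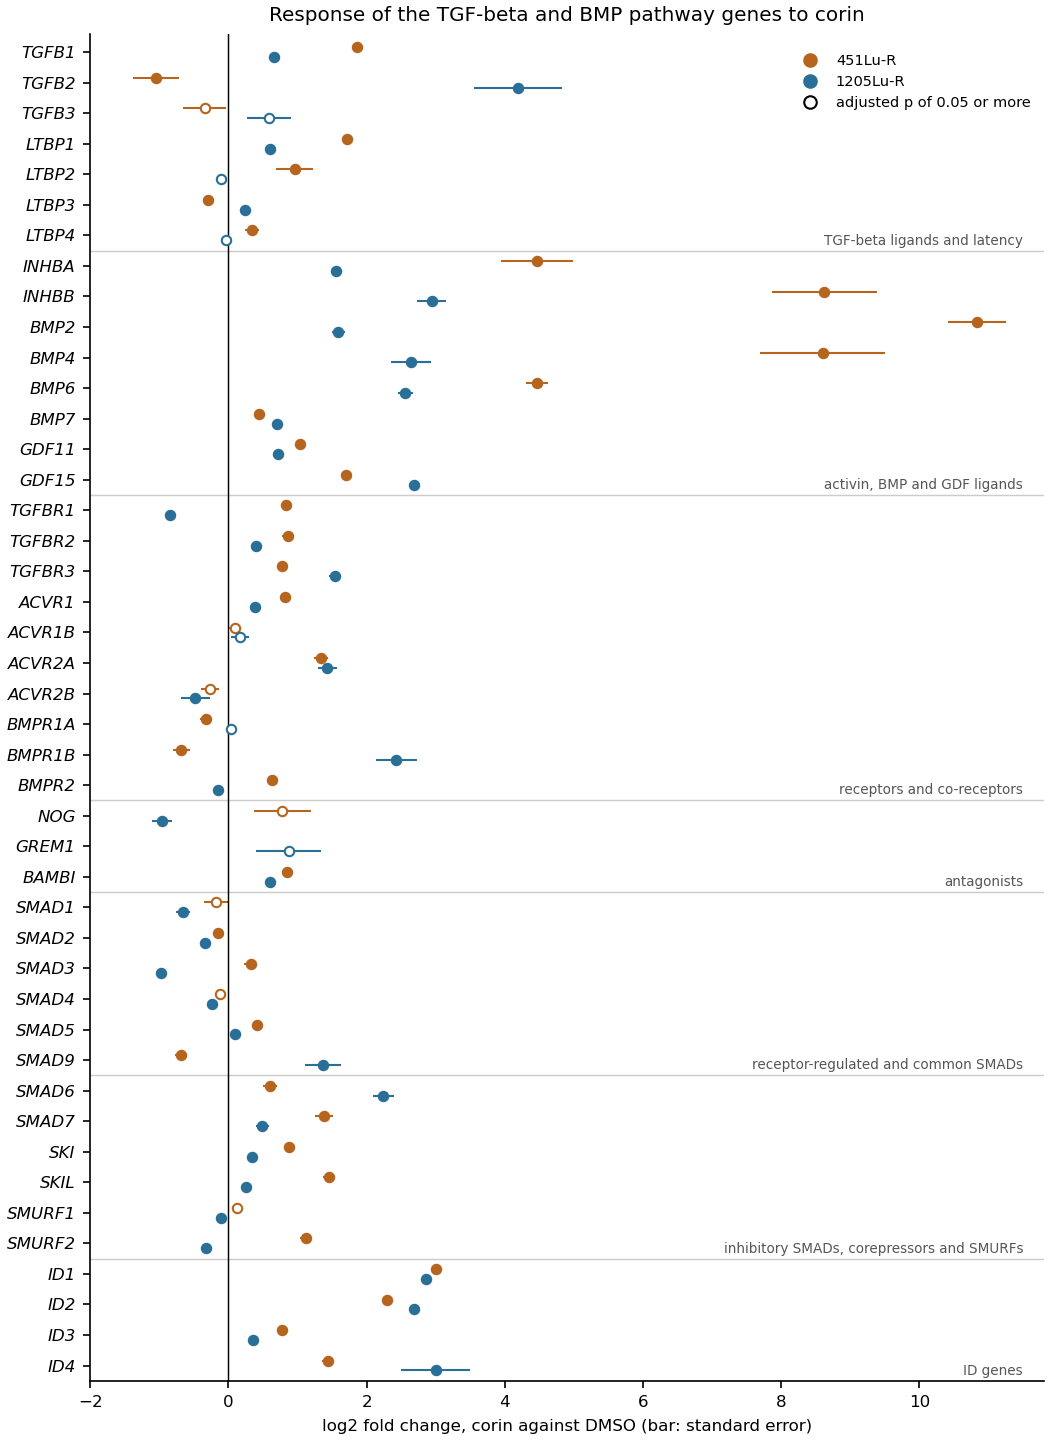
Log2 fold change of each of the 44 members with corin against DMSO (horizontal axis, with its standard error as the bar), ordered by role, in 451Lu-R (orange) and 1205Lu-R (blue), with open points for an adjusted p of 0.05 or more. All 8 activin, BMP and GDF ligands and all 4 ID genes lie right of 0 in both lines, while the receptors and SMADs spread to both sides. The 3 points beyond 8 are fitted against DMSO libraries with 0 counts and their size depends on the fit.

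All 8 activin, BMP and GDF ligands rose in both lines, 7 of them by 2-fold or more in 451Lu-R and 6 in 1205Lu-R. Without the ligands that 451Lu-R tested only through corin, BMP6, BMP7, GDF11 and GDF15 remain there. These all rose, and all but BMP7 by 2-fold or more. INHBA and INHBB (the βA and βB chains of activins), BMP2 and BMP4 were close to or at 0 counts in 451Lu-R with DMSO and readable in every corin library. BMP2 had 0 counts in both DMSO libraries of 451Lu-R and stood at 20.8 and 22.5 CPM with corin, at least 71.2-fold higher when the DMSO libraries are set to a floor of 3 counts each. The same ligand was already present in 1205Lu-R, at 12.5 and 12.6 CPM with DMSO, and rose to 38.5 and 36.5 CPM (log2 fold change, 1.59 ± 0.093 SE, adjusted p = 8.08e-13). In both lines the corin libraries lay well above the DMSO libraries, and 451Lu-R with corin exceeded untreated 1205Lu-R.

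BMP4, a ligand of the same class, likewise had 0 counts in both DMSO libraries of 451Lu-R and stood at 5.98 and 3 CPM with corin, at least 15.3-fold higher. In 1205Lu-R BMP4 rose from 0.752 and 1.76 CPM to 8.82 and 6.76 CPM (2.64 ± 0.29, adjusted p = 3.52e-08), a change of 3.34 without DMSO replicate 2 and of 2.13 without DMSO replicate 1. Its replicates differed more from each other than those of BMP2 did, but the groups did not overlap. The DMSO libraries of 1205Lu-R held 8 and 18 counts of BMP4, so its test there rested on the corin libraries passing the filter. INHBB had 0 counts with DMSO in 451Lu-R and 4.84 and 4.45 CPM with corin, at least 15.4-fold higher. In 1205Lu-R INHBB rose from 1.22 and 2.05 CPM to 12.1 and 12.7 CPM (2.94 ± 0.21, adjusted p = 3.36e-11).

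INHBA, which forms activin A, was at 0.350 and 0 CPM in 451Lu-R with DMSO, 4 counts in all, and at 4.40 and 4.35 CPM with corin, a ratio of 21.7 (95% exact interval for counting error only, 8.19 to 81.3). Its fitted log2 fold change of 4.46 rested on those 4 counts and became 8.50 without DMSO replicate 1, the library that held them. In 1205Lu-R INHBA was abundant before treatment, at 32.8 and 32.9 CPM, and rose to 95 and 96.2 CPM (1.56 ± 0.055, adjusted p = 1.09e-16). Corin-treated 451Lu-R thus remained far below untreated 1205Lu-R for this activin chain.

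BMP6, a BMP with a low but readable baseline, rose in 451Lu-R from 1.14 and 2.26 CPM to 38.8 and 36.5 CPM (4.47 ± 0.16, adjusted p = 2.29e-15). It rose in 1205Lu-R from 6.95 and 7.81 CPM to 44.8 and 41.3 CPM (2.56 ± 0.11, adjusted p = 1.49e-15). The lines differed clearly with DMSO and lay close together with corin. Exons of BMP6 overlap those of TXNDC5 on the opposite strand, and since the strand setting of the libraries is not given in the sources used here, reads of such a pair cannot be told apart. In 451Lu-R, TXNDC5 counts were 3837 and 3506 under DMSO against 3343 and 2806 under corin.

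GDF15, a divergent family member induced by cell stress, was the ligand with the highest level in 451Lu-R, where it rose from 176 and 161 CPM to 571 and 542 CPM (1.70 ± 0.033, adjusted p = 1.28e-19). It rose in 1205Lu-R from 19.0 and 19.8 CPM to 126 and 120 CPM (2.68 ± 0.060, adjusted p = 3.7e-20). The treated 1205Lu-R libraries still lay below the untreated 451Lu-R libraries. GDF11, a ligand close to myostatin, rose in 451Lu-R from 132 and 122 CPM to 266 and 264 CPM (1.03 ± 0.035, adjusted p = 6.13e-16) and in 1205Lu-R from 39.2 and 34.9 CPM to 64.5 and 57.0 CPM (0.72 ± 0.072, adjusted p = 7.53e-09). It overlaps SARNP on the opposite strand, whose counts went from 358 and 347 to 239 and 217 in 451Lu-R. BMP7 rose least of the 8 in 451Lu-R, by a log2 fold change of 0.45 ± 0.067 (adjusted p = 5.22e-06), and by 0.70 ± 0.041 in 1205Lu-R (adjusted p = 6.68e-13).

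**Figure D2:**
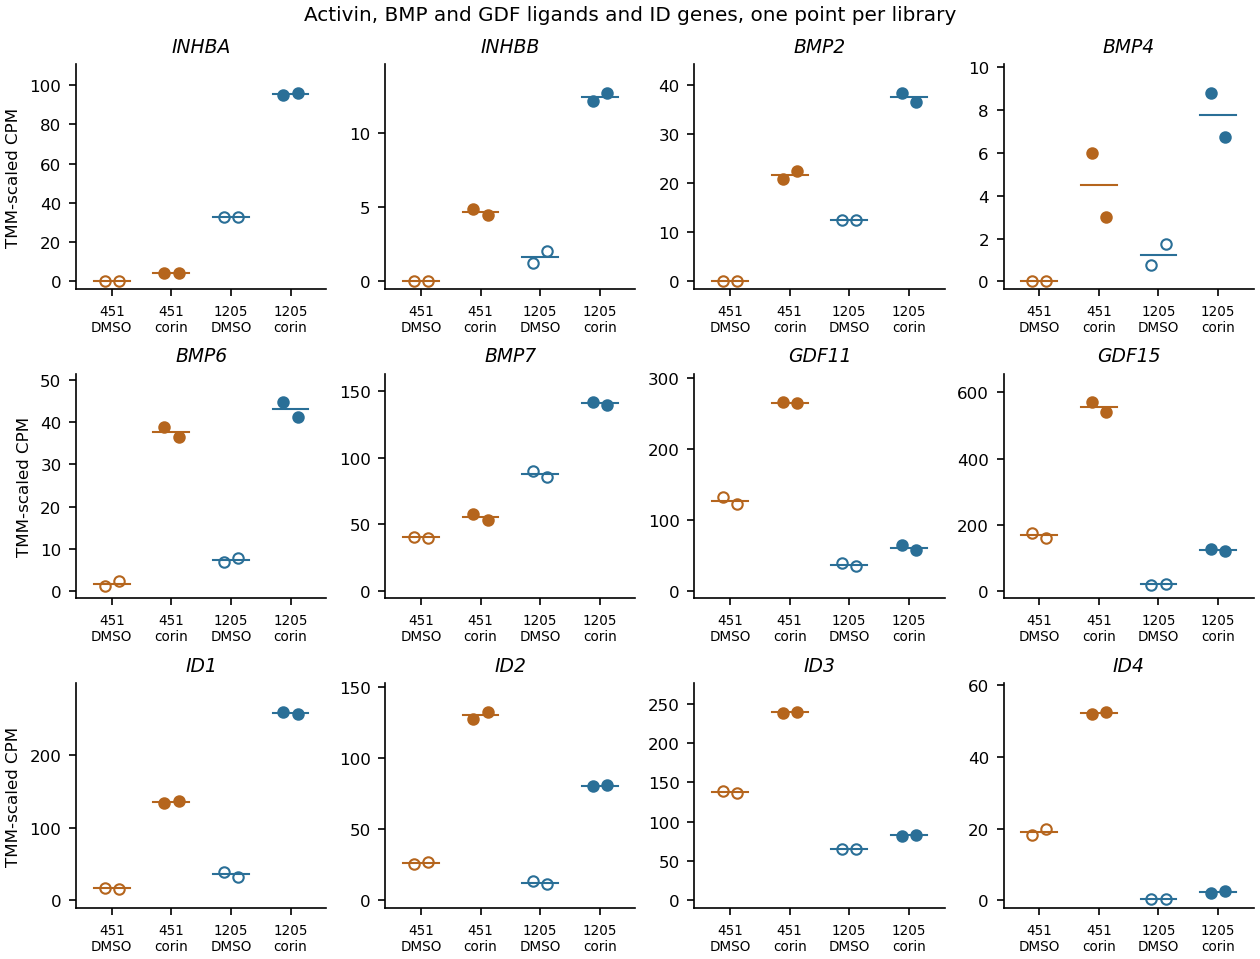
TMM-scaled CPM (vertical axes, linear, starting near 0) of the 8 activin, BMP and GDF ligands and the 4 ID genes in each of the 8 libraries, with 1 point per library, open for DMSO and filled for corin, and a line at each group's mean. In every panel both corin libraries lie above both DMSO libraries of the same line, and BMP2, BMP4 and INHBB sit at 0 in 451Lu-R with DMSO.

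The 4 ID genes encode helix-loop-helix proteins that lack a DNA-binding region and hold back other factors of that family, and all 4 rose in both lines. ID1 rose in 451Lu-R from 16.7 and 16 CPM to 133 and 136 CPM (3.01 ± 0.062, adjusted p = 2.81e-19). In 1205Lu-R ID1 rose from 39.0 and 32.4 CPM to 259 and 256 CPM (2.86 ± 0.051, adjusted p = 6.86e-22). The responses of the lines did not pass the test of their difference (1205Lu-R minus 451Lu-R, -0.19 ± 0.10, adjusted p = 0.15), although without DMSO replicate 2 of 1205Lu-R it was -0.33 (adjusted p = 0.0127).

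ID2 rose in 451Lu-R from 25.5 and 27.0 CPM to 128 and 133 CPM (2.29 ± 0.058, adjusted p = 7.26e-18). It rose in 1205Lu-R from 13.5 and 11.6 CPM to 80.3 and 81.0 CPM (2.69 ± 0.078, adjusted p = 3.05e-18). No DMSO library of ID1 or ID2 came near a corin library of its own line. ID2 overlaps the antisense gene ID2-AS1, whose counts went from 12 and 19 to 31 and 24 in 451Lu-R and from 11 and 3 to 54 and 51 in 1205Lu-R, few beside the counts of ID2.

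ID3 had the highest level of the 4 before treatment in both lines and rose least, by 0.78 ± 0.032 in 451Lu-R (adjusted p = 1.79e-14) and by 0.36 ± 0.048 in 1205Lu-R (adjusted p = 6.89e-07). Its libraries held 139 and 136 CPM with DMSO and 238 and 240 CPM with corin in 451Lu-R, and 65.4 and 65.7 CPM against 82.5 and 83.5 CPM in 1205Lu-R. ID4 rose in 451Lu-R from 18.2 and 19.8 CPM to 52.0 and 52.6 CPM (1.44 ± 0.079, adjusted p = 1.44e-12). In 1205Lu-R ID4 was at 3 counts in each DMSO library and at 1.95 and 2.72 CPM with corin, a ratio of 8.76 (95% exact interval, 3.75 to 25; adjusted p = 1.11e-05 by edgeR). Even with corin, ID4 in 1205Lu-R stayed below its untreated level in 451Lu-R.

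The TGF-β ligands and their binding proteins were less uniform: of 7, 4 rose and 2 fell in 451Lu-R, while in 1205Lu-R 4 rose and the other 3 did not pass. TGFB1, the main ligand of the class, rose in 451Lu-R from 24.4 and 21.8 CPM to 87.9 and 82.8 CPM (1.86 ± 0.071, adjusted p = 4.34e-15). In 1205Lu-R it started far higher, at 408 and 399 CPM, and rose to 636 and 626 CPM (0.66 ± 0.028, adjusted p = 1.86e-15). The smaller fold in 1205Lu-R passed the test of the difference (-1.24 ± 0.081, adjusted p = 2.95e-11). TGFB1 overlaps HNRNPUL1 on the opposite strand, whose counts moved the other way, from 3482 and 3060 to 827 and 726 in 451Lu-R and from 4780 and 4619 to 1268 and 1459 in 1205Lu-R.

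TGFB2 changed in opposite directions. In 451Lu-R it fell from 3.33 and 2.85 CPM to 1.94 and 1.03 CPM (-1.05 ± 0.33, adjusted p = 0.00758), a call that was lost with DESeq2 (adjusted p = 0.0972) and without corin replicate 2 (-0.69, adjusted p = 0.116). In 1205Lu-R TGFB2 had 1 count in each DMSO library and 16 and 25 counts with corin, a ratio of 21.6 (95% exact interval, 5.6 to 184; adjusted p = 4.09e-06 by edgeR). Its level stayed low in every group, with no library above 3.33 CPM. TGFB3, the remaining ligand of the class, did not pass in either line (-0.34 ± 0.31, adjusted p = 0.317, and 0.59 ± 0.32, adjusted p = 0.101).

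LTBP1, which holds latent TGF-β in the matrix, rose in 451Lu-R from 24.8 and 23.4 CPM to 79.5 and 81.9 CPM (1.72 ± 0.068, adjusted p = 8.02e-15). It rose in 1205Lu-R from 76.1 and 77.4 CPM to 115 and 115 CPM (0.60 ± 0.043, adjusted p = 2.74e-11). With corin, 451Lu-R reached the level that 1205Lu-R had without it.

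The other binding proteins changed by less than 2-fold. LTBP2 rose in 451Lu-R from 2.01 and 2.06 CPM to 3.78 and 4.35 CPM (0.96 ± 0.27, adjusted p = 0.00292), and was at 64.9 and 65.1 CPM against 62.4 and 56.8 CPM in 1205Lu-R (-0.11 ± 0.057, adjusted p = 0.0747). LTBP3 fell in 451Lu-R from 90.3 and 83.4 CPM to 74.4 and 68.5 CPM (-0.30 ± 0.054, adjusted p = 4.03e-05) and rose in 1205Lu-R from 44.2 and 43.7 CPM to 53.3 and 49.9 CPM (0.24 ± 0.064, adjusted p = 0.00154). LTBP4 rose in 451Lu-R from 18.4 and 20.9 CPM to 23.8 and 27.0 CPM (0.34 ± 0.099, adjusted p = 0.0037) and was at 39.6 and 40.5 CPM against 38.8 and 38.7 CPM in 1205Lu-R (-0.03 ± 0.069, adjusted p = 0.678). These calls were thin: DESeq2 lost LTBP2 (adjusted p = 0.0635) and LTBP4 (adjusted p = 0.0731) in 451Lu-R and LTBP3 in 1205Lu-R (adjusted p = 0.0539), and LTBP2 in 1205Lu-R passed without corin replicate 1 (-0.18, adjusted p = 0.018), while LTBP4 in 451Lu-R did not without DMSO replicate 1 (0.24, adjusted p = 0.0568).

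Among the 10 receptors and co-receptors, rises numbered 6 and falls 2 in 451Lu-R, against 5 rises and 3 falls in 1205Lu-R. TGFBR1, the type I receptor for TGF-β, moved in opposite directions. It rose in 451Lu-R from 113 and 106 CPM to 195 and 205 CPM (0.84 ± 0.039, adjusted p = 1.22e-13), and fell in 1205Lu-R from 141 and 148 CPM to 82.7 and 77.7 CPM (-0.84 ± 0.044, adjusted p = 1.09e-13). The line with more TGFBR1 before treatment was the line with less after it, and the groups did not overlap in either line. TGFBR2, its type II partner, rose in both, by 0.86 ± 0.078 (adjusted p = 4.77e-09) and 0.40 ± 0.036 (adjusted p = 1.45e-09).

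TGFBR3, the co-receptor betaglycan, rose in 451Lu-R from 44.3 and 45.3 CPM to 78.4 and 77.5 CPM (0.78 ± 0.058, adjusted p = 2.16e-10). It rose in 1205Lu-R from 19.1 and 19.4 CPM to 57.0 and 53.7 CPM (1.54 ± 0.077, adjusted p = 4.55e-14). ACVR2A, a type II receptor for activins that also serves BMPs, was the receptor that rose 2-fold or more in both lines. It went from 10.1 and 10.5 CPM to 25.8 and 27.3 CPM in 451Lu-R (1.34 ± 0.10, adjusted p = 4.27e-10) and from 7.14 and 6.05 CPM to 18.7 and 16.7 CPM in 1205Lu-R (1.43 ± 0.14, adjusted p = 4.41e-09). The gene overlaps ORC4 on the opposite strand, which went the same way, from 560 and 473 to 1306 and 1053 counts and from 306 and 318 to 724 and 852 counts. ACVR1, a type I receptor for BMPs, rose by 0.82 ± 0.068 (adjusted p = 1.03e-09) and 0.38 ± 0.041 (adjusted p = 2.58e-08).

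BMPR1B, a type I BMP receptor, fell in 451Lu-R from 16.4 and 16.4 CPM to 10.3 and 10.6 CPM (-0.68 ± 0.12, adjusted p = 2.92e-05). It rose in 1205Lu-R from 0.939 and 1.07 CPM to 5.64 and 5.18 CPM (2.43 ± 0.30, adjusted p = 1.72e-07). The lines thus came closer, with 451Lu-R still higher in every library. BMPR2, the type II BMP receptor, went the other way round, rising in 451Lu-R from 107 and 98.2 CPM to 164 and 160 CPM (0.63 ± 0.042, adjusted p = 2.67e-11) and falling slightly in 1205Lu-R from 201 and 197 CPM to 173 and 182 CPM (-0.15 ± 0.036, adjusted p = 0.000749).

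BMPR1A, the other type I BMP receptor, fell in 451Lu-R from 36.4 and 37.1 CPM to 26.8 and 33.3 CPM (-0.32 ± 0.089, adjusted p = 0.00269), and was at 46.6 and 40.0 CPM against 43.6 and 44.7 CPM in 1205Lu-R, where the groups overlapped (0.04 ± 0.074, adjusted p = 0.602). The fall in 451Lu-R was lost with DESeq2 (adjusted p = 0.0713) and without corin replicate 1 (-0.16, adjusted p = 0.136). The fall of BMPR2 in 1205Lu-R was lost when scaled by library size only (-0.07, adjusted p = 0.0647). The activin receptors ACVR1B and ACVR2B did not pass in 451Lu-R (adjusted p = 0.366 and 0.0756), and in 1205Lu-R ACVR2B fell by 0.48 (adjusted p = 0.0399) while ACVR1B did not pass (adjusted p = 0.224).

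**Figure D3:**
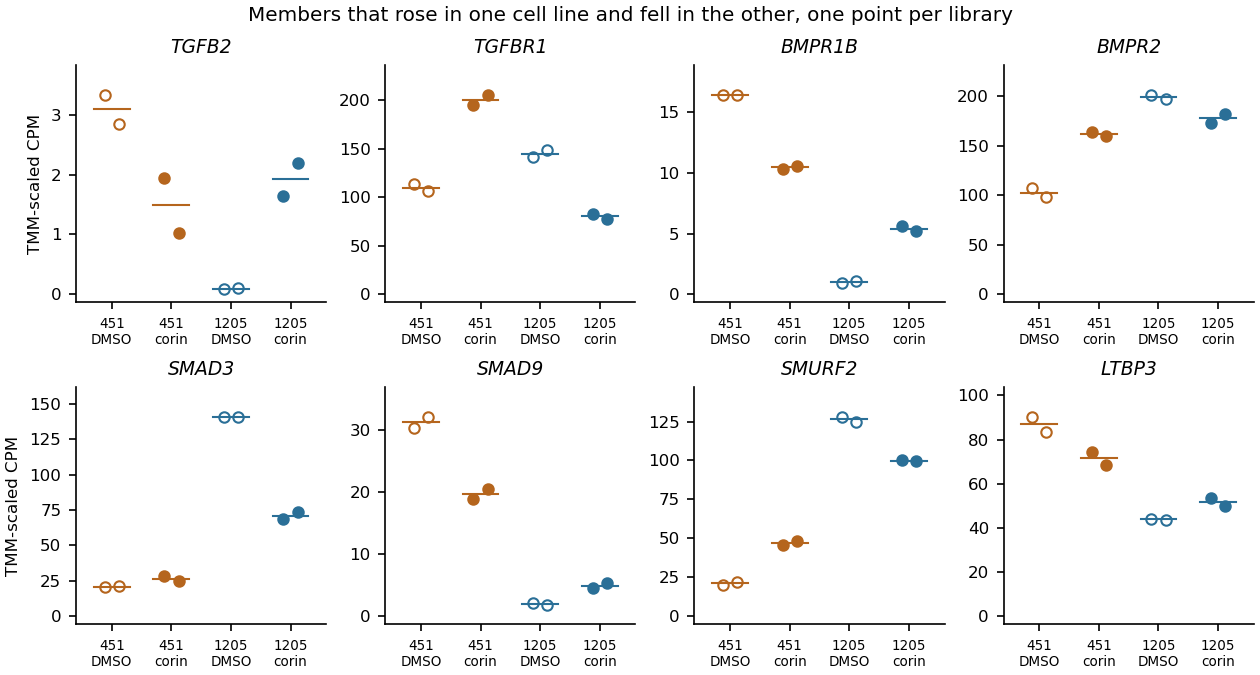
TMM-scaled CPM (vertical axes, linear) of the 8 members that rose in 1 line and fell in the other, with 1 point per library, open for DMSO and filled for corin, and a line at each group's mean. For TGFBR1, BMPR2, SMAD3 and SMURF2 the corin libraries lie above DMSO in 451Lu-R and below it in 1205Lu-R, and for TGFB2, BMPR1B, SMAD9 and LTBP3 the reverse holds.

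Of the 6 receptor-regulated and common SMADs, which carry the signal to the nucleus, 451Lu-R had 2 that rose and 2 that fell, and 1205Lu-R had 2 and 4. SMAD3, the SMAD of the TGF-β branch that binds DNA directly, fell in 1205Lu-R from 141 and 141 CPM to 68.6 and 73.6 CPM (-0.97 ± 0.043, adjusted p = 6.7e-15). In 451Lu-R it was lower to begin with and rose from 20.3 and 21.4 CPM to 28.0 and 24.5 CPM (0.32 ± 0.093, adjusted p = 0.0042). The rise in 451Lu-R was lost with DESeq2 (adjusted p = 0.0947) and without corin replicate 1 (0.22, adjusted p = 0.0972), whereas the fall in 1205Lu-R passed in every alternative fit. Treated 1205Lu-R still held more SMAD3 than 451Lu-R in any library.

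SMAD9, a SMAD of the BMP branch, showed the mirror image. It fell in 451Lu-R from 30.3 and 32.1 CPM to 18.8 and 20.5 CPM (-0.69 ± 0.088, adjusted p = 5.23e-07), and rose in 1205Lu-R from 2.07 and 1.76 CPM to 4.51 and 5.27 CPM (1.37 ± 0.26, adjusted p = 7.53e-05). SMAD1, of the same branch, fell in 1205Lu-R by 0.66 (adjusted p = 2.95e-06) and did not pass in 451Lu-R (-0.18 ± 0.17, adjusted p = 0.334). The third SMAD of that branch, SMAD5, rose by 0.42 ± 0.038 (adjusted p = 5.03e-09) in 451Lu-R and by 0.10 ± 0.036 (adjusted p = 0.0206) in 1205Lu-R. SMAD2 was the sole member that fell in both lines by edgeR, by 0.15 (adjusted p = 0.00806) and 0.34 (adjusted p = 1.94e-06) on the log2 scale. With DESeq2, 3 members were lower in 451Lu-R, namely LTBP3, BMPR1B and SMAD9, so the fall of SMAD2 in that line was lost. SMAD4, the common partner, fell by 0.24 in 1205Lu-R (adjusted p = 0.000399) and did not pass in 451Lu-R (-0.12 ± 0.065, adjusted p = 0.0974).

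The inhibitors of the pathway rose in 451Lu-R for 5 of 6 genes, SMURF1 being the exception, and in 1205Lu-R 4 rose and 2 fell. SMAD6, an inhibitory SMAD that acts mainly on the BMP branch and is induced by it, rose in 1205Lu-R from 3.66 and 4.78 CPM to 19.4 and 19.9 CPM (2.24 ± 0.15, adjusted p = 7.88e-12). It rose in 451Lu-R from 15.9 and 14.0 CPM to 23.7 and 22.5 CPM (0.60 ± 0.10, adjusted p = 1.89e-05). The corin libraries of both lines lay between 19.4 and 23.7 CPM. SMAD7, which blocks the TGF-β receptors, rose in 451Lu-R from 7.62 and 6.39 CPM to 19.5 and 17.9 CPM (1.39 ± 0.13, adjusted p = 7.7e-09) and in 1205Lu-R from 19.2 and 18.2 CPM to 26.2 and 25.9 CPM (0.49 ± 0.093, adjusted p = 5.35e-05).

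SKIL (SnoN), a corepressor that binds SMADs, rose in 451Lu-R from 16.3 and 17.5 CPM to 44.8 and 49.8 CPM (1.46 ± 0.087, adjusted p = 5.55e-12). Its rise in 1205Lu-R was smaller, from 143 and 145 CPM to 163 and 178 CPM (0.26 ± 0.041, adjusted p = 5.82e-06). The related corepressor SKI rose by 0.87 ± 0.033 (adjusted p = 4.5e-15) and 0.34 ± 0.043 (adjusted p = 3.04e-07). SMURF2, a ubiquitin ligase that marks receptors and SMADs for degradation, rose in 451Lu-R from 20.2 and 22.0 CPM to 45.4 and 48.1 CPM (1.12 ± 0.080, adjusted p = 1.03e-10) and fell in 1205Lu-R from 128 and 125 CPM to 100 and 99.9 CPM (-0.32 ± 0.039, adjusted p = 1.61e-07). The groups did not overlap in either line, although 451Lu-R with corin stayed below every 1205Lu-R library.

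SMURF1, its close relative, was at 50.6 and 52.0 CPM with DMSO and at 53.4 and 61.3 CPM with corin in 451Lu-R (0.13 ± 0.070, adjusted p = 0.0888), which passed without corin replicate 1 (0.24, adjusted p = 0.0044). In 1205Lu-R it fell from 144 and 142 CPM to 133 and 130 CPM (-0.11 ± 0.037, adjusted p = 0.0129), a call that was lost with DESeq2 (adjusted p = 0.195), with scaling by library size only (adjusted p = 0.443) and without corin replicate 2 (adjusted p = 0.0978). SMURF1 shares exonic sequence with TRRAP, and SMURF2 with CEP95, on the opposite strand.

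Of the 3 antagonists, BAMBI, a decoy receptor without a kinase, rose in both lines, from 204 and 197 CPM to 373 and 362 CPM in 451Lu-R (0.85 ± 0.029, adjusted p = 5.9e-16) and from 82.1 and 82.1 CPM to 125 and 121 CPM in 1205Lu-R (0.60 ± 0.043, adjusted p = 2.35e-11). NOG (noggin), which traps BMPs outside the cell, fell in 1205Lu-R from 13.4 and 11.9 CPM to 5.84 and 6.94 CPM (-0.96 ± 0.15, adjusted p = 4.83e-06). In 451Lu-R, NOG was near 1 CPM, at 1.05 and 0.786 CPM with DMSO and 1.41 and 1.86 CPM with corin (0.78 ± 0.41, adjusted p = 0.0867). GREM1 (gremlin) was scarce throughout, with 12 counts over the DMSO libraries and 17 over the corin libraries of 451Lu-R, where it was not tested, a ratio of 1.34 (95% exact interval, 0.602 to 3.07). In 1205Lu-R the ratio was 2.04 (1.1 to 3.91), the groups overlapped, and the test across libraries did not pass (adjusted p = 0.0944 by edgeR).

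Over both lines, 43 members were tested in each, and 24 of them (55.8%) rose in both, where 28.8% of the 13200 genes tested in both did so. By 2-fold or more, 10 members (23.3%) rose in both, against 12.5% of genes: INHBA, INHBB, BMP2, BMP4, BMP6, GDF15, ACVR2A, ID1, ID2 and ID4. Without the 6 members under 10 counts in every DMSO library of either line, 19 of 37 (51.4%) rose in both and 5 of 37 (13.5%) by 2-fold or more, where 24% and 6.9% of the 11964 genes chosen in the same way did so. A single member, SMAD2, fell in both by edgeR (2.33%, against 28.5% of genes), and its fall in 451Lu-R was lost with DESeq2. A rise in 1 line with a fall in the other occurred for 8 members (18.6%, against 10.1%), namely TGFB2, LTBP3, TGFBR1, BMPR1B, BMPR2, SMAD3, SMAD9 and SMURF2. Fitted changes of opposite sign with a difference that passed were seen for 13 members (30.2%, against 18.9% of genes), which adds LTBP2, LTBP4, BMPR1A, NOG and SMURF1.

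The difference between the lines was tested with an interaction term over the 8 libraries, as the response in 1205Lu-R minus that in 451Lu-R. The response was higher in 1205Lu-R for 11 of 44 members and lower for 26, where 22.6% and 27.1% of all genes tested passed in each direction. With a difference of 2-fold or more it was 5 and 13 members (9.34% and 9.46% of genes), and at 4-fold and an adjusted p under 0.001 it was 3 and 3 (2.43% and 3.13%). The 3 lower ones were INHBA, INHBB and BMP2, with 4 counts or fewer in each DMSO library of 451Lu-R. The higher ones included TGFB2, with 1 count in each DMSO library of 1205Lu-R. From such levels a fall could hardly be seen, so the direction of these differences was partly set by the level with DMSO. Among the larger differences of members with at least 10 counts in every DMSO library were BMPR1B (3.06 ± 0.29, adjusted p = 9.48e-09), SMAD9 (2.03 ± 0.24, adjusted p = 4.07e-07) and SMAD6 (1.59 ± 0.18, adjusted p = 2.36e-07), which responded more in 1205Lu-R. BMP6 (-1.95 ± 0.25, adjusted p = 1.1e-06), TGFBR1 (-1.71 ± 0.064, adjusted p = 2.54e-15), SMURF2 (-1.48 ± 0.083, adjusted p = 2.08e-12) and SMAD3 (-1.32 ± 0.10, adjusted p = 3.23e-10) responded more, or upward, in 451Lu-R. Without DMSO replicate 2 of 1205Lu-R, 7 members rather than 11 responded more in 1205Lu-R.

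Before treatment the lines differed in nearly all members. Of 42 members tested between the DMSO libraries, 25 were higher and 16 lower in 1205Lu-R, and TGFB3 alone did not pass, where 41% and 41.5% of all genes were higher and lower. By 2-fold or more, 19 were higher and 13 lower (background, 19.6% and 21.8%), and at 4-fold and an adjusted p under 0.001, 11 and 5 (10.1% and 10.6%). BMP2, INHBB and INHBA had fewer than 10 counts in each DMSO library of 451Lu-R, and TGFB2 and ID4 in each of 1205Lu-R. They were tested only through the other line, so the filter fixed their direction, and all are in these counts. BMP4 and GREM1 were not tested here. TGFB1 was higher in 1205Lu-R by 4.11 ± 0.047 on the log2 scale (adjusted p = 7.95e-29), LTBP2 by 4.97 ± 0.12 (adjusted p = 4.74e-22), SKIL by 3.08 ± 0.063 (adjusted p = 1.13e-23), SMAD3 by 2.74 ± 0.060 (adjusted p = 4.32e-23) and TGFBR2 by 2.29 ± 0.054 (adjusted p = 2.62e-22). Against the floor, BMP2 was at least 41.4-fold, INHBB at least 5.37-fold and BMP4 at least 4.11-fold higher in 1205Lu-R. Lower in 1205Lu-R were SMAD9 (-4.04 ± 0.15, adjusted p = 6.36e-18), BMPR1B (-4.03 ± 0.22, adjusted p = 7.98e-15), GDF15 (-3.14 ± 0.064, adjusted p = 1.04e-23) and SMAD6 (-1.84 ± 0.17, adjusted p = 3.9e-10), beside ID4, at 3 counts in each library. Genes of the TGF-β branch were also among the lower ones. TGFB2 had 1 count in each 1205Lu-R library (ratio 0.0279, 95% exact interval, 0.00331 to 0.105; adjusted p = 1.89e-08 by edgeR), and TGFBR3 (-1.24 ± 0.081, adjusted p = 4.54e-13) and LTBP3 (2.01-fold lower, adjusted p = 3.6e-14) were lower as well. This comparison shares its DMSO libraries with both corin comparisons, so its direction and theirs are not independent.

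Per kilobase of exon, the levels of different genes can be set side by side only roughly. The length used is the union of all annotated exons, 36426 bases for SMAD2 and 1233 for ID1. It may exceed that of the transcripts expressed, which would set the level of such a gene too low. With DMSO, the highest mean levels in 451Lu-R were those of BAMBI (93.8 CPM per kb), ID3 (91.8 CPM per kb) and GDF15 (80.9 CPM per kb), far above SKI, the next (20.5 CPM per kb). In 1205Lu-R with DMSO they were those of TGFB1 (124 CPM per kb), ID3 (43.8 CPM per kb), BAMBI (38.4 CPM per kb) and ID1 (28.9 CPM per kb). With corin, GDF15 (267 CPM per kb), BAMBI (172 CPM per kb), ID3 (160 CPM per kb) and ID1 (109 CPM per kb) led in 451Lu-R, and ID1 (209 CPM per kb) and TGFB1 (193 CPM per kb) in 1205Lu-R. Of the BMP ligands, with corin in 451Lu-R and then 1205Lu-R, BMP2 was at 6.10 and 10.6, BMP4 at 1.45 and 2.52, BMP6 at 9.95 and 11.4 and BMP7 at 10.3 and 26 CPM per kb. Of the TGF-β ligands, TGFB1 exceeded TGFB2 and TGFB3 in every group, which stayed below 1 CPM per kb.

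**Figure D4:**
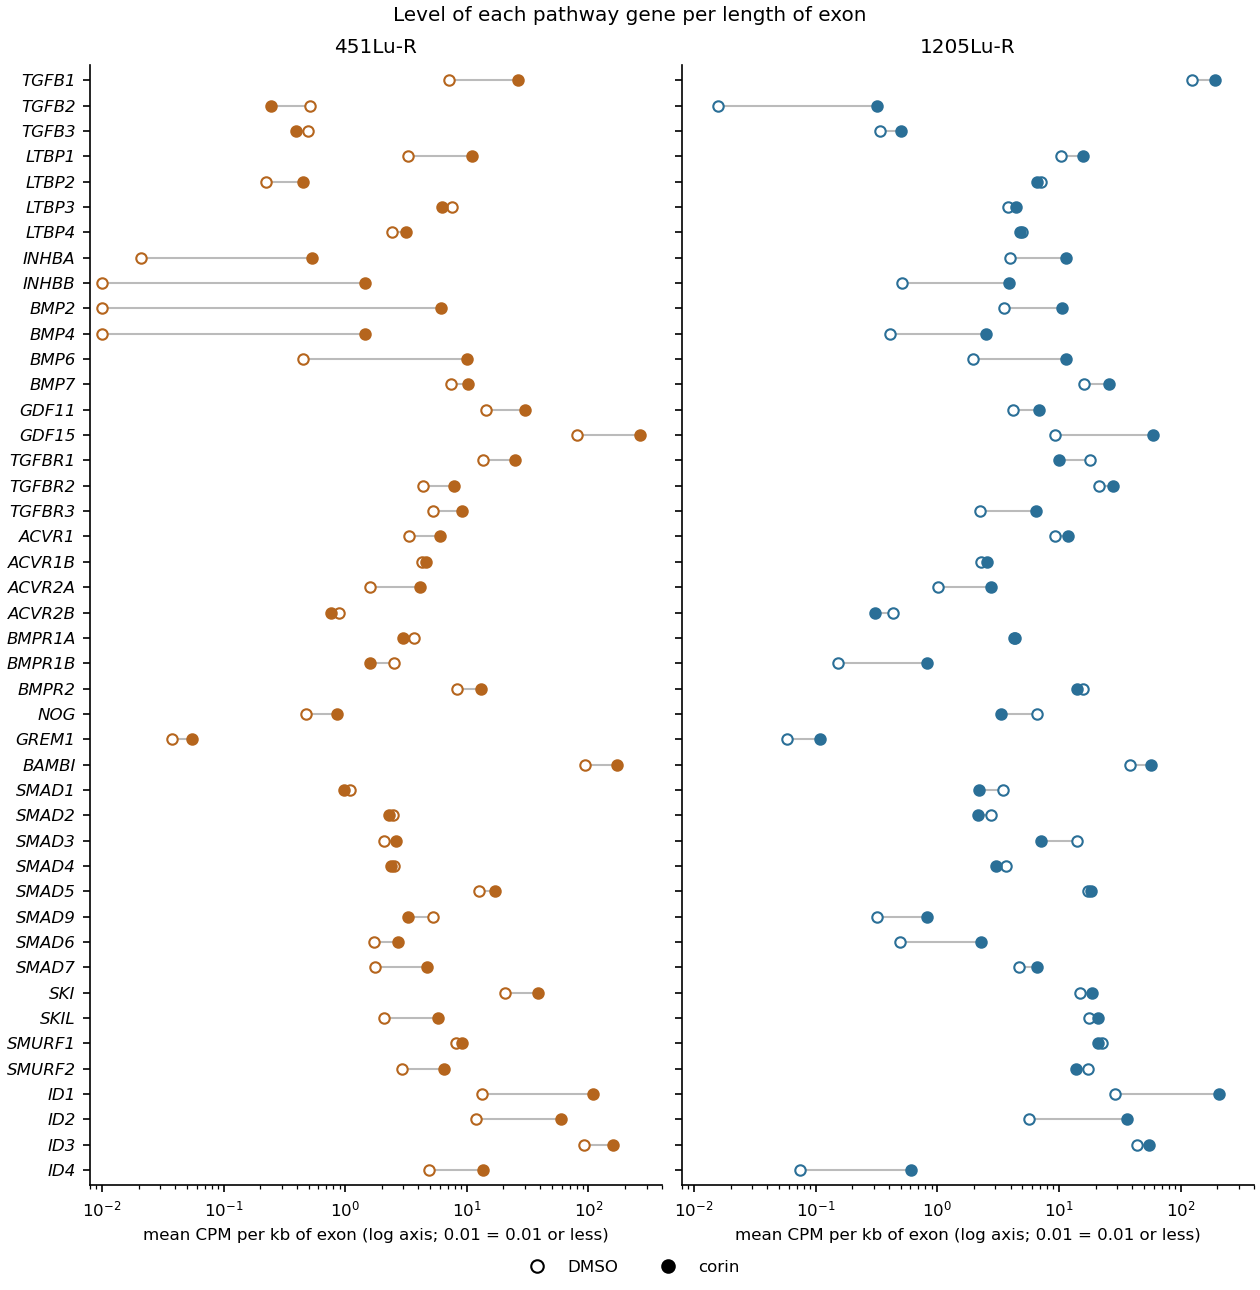
Mean CPM per kilobase of exon (horizontal log axis, with 0.01 standing for 0.01 or less) of each member, with 451Lu-R in the left and 1205Lu-R in the right panel, open for DMSO and filled for corin, as the mean of 2 libraries. TGFB1 lies at 7.07 with DMSO in 451Lu-R and at 124 in 1205Lu-R, and ID1 ends at 109 and 209 with corin.

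Other genes of the pathway, from hand-written lists, are given by their counts beside the background of all genes above. Where genes low with DMSO are left out, the background is the share of genes chosen in the same way. In 451Lu-R 35.6% of those rose and 42.5% fell, and in 1205Lu-R 35% and 41.6%. TGF-β response genes rose for 18 of 21 tested in 451Lu-R and fell for 3, with a median log2 fold change of 2.15, and in 1205Lu-R 14 of 22 rose and 6 fell, with a median of 0.90. Without the genes under 10 counts in every DMSO library of the line, COL1A1 in 451Lu-R among them, 10 of 13 rose and 3 fell (median, 1.52), and 13 of 21 rose and 6 fell (median, 0.77). COL1A1, a chain of collagen I, rose in 451Lu-R from 0.526 and 0.688 CPM to 40.6 and 43.1 CPM (6.06 ± 0.17, adjusted p = 4.76e-17). In 1205Lu-R the cytokine IL11 rose from 64.4 and 61.5 CPM to 989 and 981 CPM (3.98 ± 0.037, adjusted p = 1.27e-26) and ANGPTL4 from 9.96 and 10.3 CPM to 99 and 95.7 CPM (3.27 ± 0.075, adjusted p = 4.59e-20). PDGFB, a growth factor chain, had 0 counts in all DMSO libraries of both lines and 55, 52, 56 and 54 counts in the corin libraries. PTHLH went from 0 counts in 451Lu-R to 46 and 39, and from 10 and 15 to 91 and 114 counts in 1205Lu-R.

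BMP response genes rose for 7 of 13 in 451Lu-R and fell for 1, with a median of 0.39, and rose for 9 of 13 in 1205Lu-R and fell for 1, with a median of 1.54. Without genes as low as that with DMSO, among them UNC5B and DLX3 in 451Lu-R, 4 of 10 rose and 1 fell (median, 0.19), and 7 of 11 rose and 1 fell (median, 1.10). UNC5B, a netrin receptor, rose from 0.263 and 0.393 CPM to 20 and 21.9 CPM in 451Lu-R (5.94 ± 0.25, adjusted p = 1.9e-14) and from 1.03 and 0.585 CPM to 28.5 and 28.5 CPM in 1205Lu-R (5.12 ± 0.19, adjusted p = 2.89e-16). MSX2, a homeobox factor, rose from 10.1 and 9.73 CPM to 53.2 and 52.6 CPM (2.39 ± 0.087, adjusted p = 2.19e-15) and from 16.3 and 16.7 CPM to 73.9 and 73.8 CPM (2.18 ± 0.072, adjusted p = 3.4e-17). Neither gene's DMSO libraries overlapped its corin libraries. DLX3 and TBX3 also rose in 451Lu-R (4.15 ± 0.28, adjusted p = 5.13e-11, and 2.26 ± 0.12, adjusted p = 9.08e-13), and HEY1 rose in 1205Lu-R (1.81 ± 0.17, adjusted p = 2.62e-09), where DLX5 had 1 and 2 counts with DMSO and 24 and 30 counts with corin.

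Among the other ligands listed, 20 were in the count table and few were expressed. In 451Lu-R 4 of 5 tested rose and in 1205Lu-R 3 of 4. Without the genes under 10 counts in every DMSO library of the line, GDF6 and BMP8A among them, 1 of 2 rose in each line. GDF6, a BMP-like ligand, had 0 counts in the DMSO libraries of both lines and 54 and 37 counts with corin in 451Lu-R, to which correspond 97 and 105 in 1205Lu-R. BMP8B rose from 44.8 and 47.2 CPM to 139 and 145 CPM (1.60 ± 0.05, adjusted p = 1.96e-16) and from 4.51 and 5.07 CPM to 61.1 and 58 CPM (3.65 ± 0.10, adjusted p = 2.26e-18), but BMP8A and BMP8B are near-identical copies whose reads may have been split between them.

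Extracellular antagonists and activators rose for 11 of 16 and fell for 5 in 451Lu-R, with a median of 3.18, and rose for 8 of 17 and fell for 7 in 1205Lu-R, with a median of -0.05. Without genes as low as that with DMSO the median in 451Lu-R turned negative (-0.35), with 3 of 8 risen and 5 fallen, and in 1205Lu-R 6 of 15 rose and 7 fell (median, -0.06). FBN1 and FBN2, fibrillins of the matrix that bind latent TGF-β complexes, were at 5 and 0, and at 1 and 0 counts with DMSO in 451Lu-R and at 79 and 68, and 88 and 71 counts with corin. TLL2, a protease of the tolloid family, rose there from 0.526 and 0.295 CPM to 23 and 20.7 CPM (5.65 ± 0.24, adjusted p = 1.94e-14). FSTL3, which binds activins, rose in 1205Lu-R from 13.4 and 15.2 CPM to 93.8 and 93.4 CPM (2.72 ± 0.071, adjusted p = 5.28e-19), and CHRDL1, a chordin-like antagonist, from 1.13 and 2.15 CPM to 9.02 and 9.66 CPM (2.53 ± 0.24, adjusted p = 3.06e-09).

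**Figure D5:**
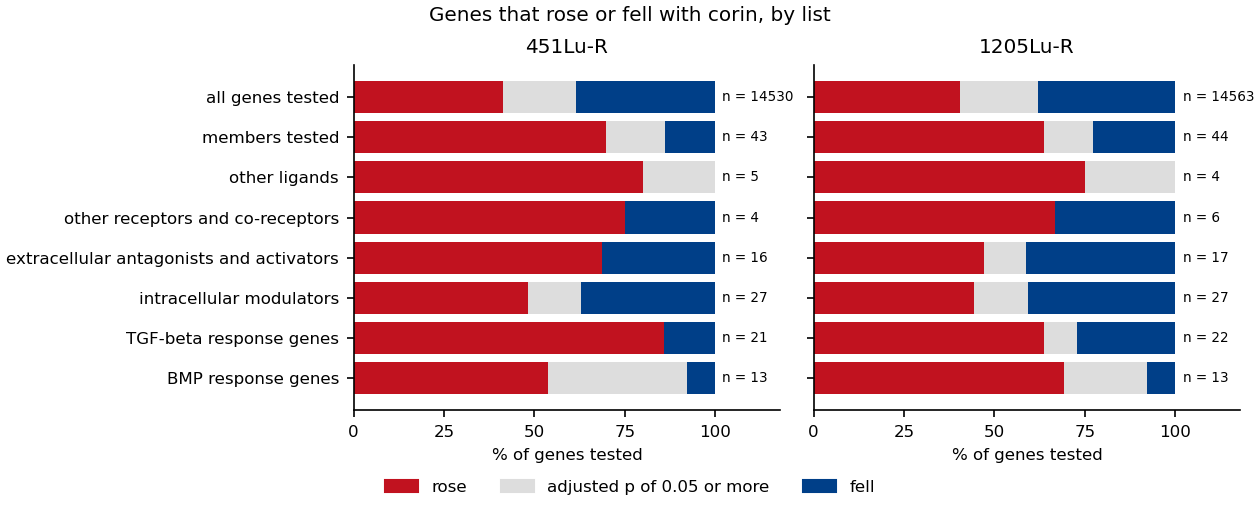
Share of the genes tested in each list (percent, horizontal axis, with the number tested at the right of each bar) that rose (red), did not pass (gray) or fell (blue) with corin at an adjusted p under 0.05, with 451Lu-R in the left and 1205Lu-R in the right panel. Of the members tested, 30 of 43 and 28 of 44 rose, as did 18 of 21 and 14 of 22 TGF-β response genes.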

How the data were processed

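RNA-Seq libraries of 451Lu-R and 1205Lu-R cells were analysed, 2 per group. The authors trimmed reads with Trimmomatic, estimated expression with Salmon against GENCODE 32 and deposited estimated counts (expected counts per gene, not normalized) for 8 libraries; tool versions and the strand setting are not given in the sources used here. For the PLX4032 libraries the files hold the authors' own log2 fold changes and adjusted p-values, which were not used. Gene IDs were named through GENCODE 44 (34052 of 34228 genes, hg38).

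Estimated counts were rounded and tested with edgeR 4.0.16 in R 4.3.3 (filterByExpr, TMM, quasi-likelihood F test, 2-sided, Benjamini-Hochberg adjustment over all genes tested) within each line, between the lines with DMSO, and for the difference in response over all 8 libraries. "Rose" and "fell" mean an adjusted p under 0.05. TMM factors ran from 0.962 to 1.05. A group with 0 counts in every library was set to a floor of 3 counts a library, and its fold is a lower bound. Intervals cover counting error only. CPM per kb divides by the union of a gene's exons. Libraries of a group differed with a chi-square per degree of freedom of 1.34 to 1.41. Same-numbered libraries did not deviate together (r of -0.0145 for 451Lu-R, -0.00528 for 1205Lu-R), and the numbers were not used for pairing. On simulated data edgeR recovered 87 of 100 genes changed 2-fold in 451Lu-R (7 false calls among 14530 genes) and 92 of 100 in 1205Lu-R (8 among 14563). It recovered 90 of 100 between the lines with DMSO (1 among 14104) and 69 of 100 for the difference in response (3 among 16062). The simulation gave all genes the same dispersion and changed 200 genes, none low in counts, as many up as down. The real comparisons called far more genes, so these rates do not carry over to them or to members with few counts.

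Alternatives left out each library in turn, added the replicate number as a block, joined all 8 libraries in a single fit, replaced edgeR by DESeq2 1.42.0 or TMM by RLE factors or plain library size, dropped the low-count filter or required a mean of 1 CPM, or called genes at 4-fold with an adjusted p under 0.001. Members and lists were chosen with earlier results of these data known. Members were described per library if they changed 2-fold or more in either line, or had opposite signs and a difference that passed; from each other list at most 4 genes per line were named, those with the largest change among genes that passed, averaged 1 CPM or more, and had groups that did not overlap, and a few of these are not reported here. The lists were other ligands, other receptors and co-receptors, extracellular antagonists and activators, intracellular modulators, TGF-β response genes, BMP response genes, and markers of melanocytic, leukocyte, endothelial and keratinocyte cells.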

Additional observations from a re-analysis of the deposited data

Results flagged for a closer look

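For 37 of the 44 members the response to corin differed between the lines by the interaction term (edgeR, adjusted p under 0.05). Of all genes tested, 22.6% passed with a higher and 27.1% with a lower response in 1205Lu-R. Values are the log2 response in 1205Lu-R minus that in 451Lu-R. Among TGF-β ligands and binding proteins it was -1.24 for TGFB1, 5.21 for TGFB2, -1.15 for LTBP1, -1.11 for LTBP2, 0.51 for LTBP3 and -0.41 for LTBP4. Among activin, BMP and GDF ligands it was -2.93 for INHBA, -5.70 for INHBB, -9.26 for BMP2, -5.98 for BMP4, -1.95 for BMP6, 0.22 for BMP7, -0.35 for GDF11 and 0.94 for GDF15. The sizes for INHBA, INHBB, BMP2 and BMP4 are uncertain, since 451Lu-R held 0 or few counts with DMSO, as are those for TGFB2 and ID4, with 3 counts or fewer per DMSO library of 1205Lu-R. For these genes the direction, too, was partly set by the low level with DMSO, from which a fall could hardly be seen.

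Among receptors the difference was -1.71 for TGFBR1, -0.50 for TGFBR2, 0.72 for TGFBR3, -0.48 for ACVR1, 0.33 for BMPR1A, 3.06 for BMPR1B and -0.82 for BMPR2. The antagonists NOG and BAMBI gave -1.78 and -0.29. For the SMADs it was -0.52 for SMAD1, -0.23 for SMAD2, -1.32 for SMAD3, -0.36 for SMAD5, 2.03 for SMAD9, 1.59 for SMAD6 and -0.94 for SMAD7. SKI gave -0.57, SKIL -1.23, SMURF1 -0.28 and SMURF2 -1.48. Of the ID genes, ID2 gave 0.36, ID3 -0.46 and ID4 1.53.

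Some of these calls did not hold in every fit. Single calls were refitted only for the 30 members that met the rule for description per library. Those of BMP7, TGFBR2, ACVR1, BAMBI, SMAD1, SMAD2, SMAD5, SKI and ID3 were therefore not checked in this way. With DESeq2, LTBP4 (-0.40, adjusted p = 0.0502) and BMPR1A (0.33, adjusted p = 0.0883) did not pass. Scaled by library size only, LTBP4 (adjusted p = 0.164), GDF11 (adjusted p = 0.192) and SMURF1 (adjusted p = 0.514) did not pass. BMPR1A did not pass without DMSO replicate 1 (adjusted p = 0.0723), DMSO replicate 2 (0.087) or corin replicate 1 (0.236) of 451Lu-R, nor without DMSO replicate 2 (0.222) or corin replicate 2 (0.0644) of 1205Lu-R. ID4 did not pass without DMSO replicate 1 (0.0767), DMSO replicate 2 (0.0657) or corin replicate 2 (0.0817) of 1205Lu-R. ID2 did not pass without DMSO replicate 2 (0.24, adjusted p = 0.152) and GDF11 without DMSO replicate 1 (-0.27, adjusted p = 0.0519) of 1205Lu-R. LTBP4 (adjusted p = 0.0663) and SMURF1 (adjusted p = 0.0934) did not pass without corin replicate 2 of 451Lu-R.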

How the results depend on the processing

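Of 1397 log2 fold changes of single members recomputed under alternatives, 1358 kept their direction and their side of the threshold, 34 no longer passed, 5 came to pass and 0 reversed. Those values cover the 30 members that met the rule for description per library. The other 14, among them members with small changes, were not recomputed singly and enter only the counts below. In 451Lu-R, DESeq2 called 3 members lower (reported, 6) and 0 lower by 2-fold or more (reported, 1). In 1205Lu-R it called 26 members higher (reported, 28) and 8 lower (reported, 10). In 1205Lu-R, 2 members were lower by 2-fold or more without the filter on low counts (reported, 0). At a 4-fold change and an adjusted p under 0.001, 451Lu-R had 7 members higher and 0 lower, 1205Lu-R had 10 and 0, with 3 and 3 for the difference in response, and 11 and 5 between the untreated lines. Leaving out single libraries, members higher and lower ran from 29 to 30 and 5 to 6 in 451Lu-R, by 2-fold or more from 15 to 17 and 0 to 1, and from 27 to 28 and 9 to 10 in 1205Lu-R, by 2-fold or more from 15 to 16 and 0 to 2. In the difference between the lines they ran from 7 to 11 and 23 to 28, by 2-fold or more from 4 to 6 and 13 to 14, and between the lines with DMSO from 24 to 26 and at 16, by 2-fold or more from 18 to 20 and 11 to 13. The fall by 2-fold or more in 451Lu-R, that of TGFB2, was lost without DMSO replicate 1 or corin replicate 2. With the replicate number as a block, 451Lu-R had 30 members risen and 6 fallen, 1205Lu-R had 28 and 10, and none of these counts changed. Those numbers share no known culture or batch. Scaling by library size only moved the median of all genes from 0.03 to 0.11 in 1205Lu-R, from -0.01 to 0.20 in the difference between the lines and from -0.01 to -0.12 between the lines with DMSO, and ended the calls of BMPR2 and SMURF1 in 1205Lu-R, of LTBP4 (-0.20, adjusted p = 0.164), GDF11 (-0.14, 0.192) and SMURF1 (-0.06, 0.514) in the difference, and of BMPR1A between the lines with DMSO (0.11, 0.177), which DESeq2 (0.23, 0.123) and leaving out DMSO replicate 1 of 1205Lu-R (0.11, 0.281) ended too. Testing without the filter moved that median to 0.20 for 451Lu-R and 0.27 for 1205Lu-R. The cause of these changes was not tested. Fits without a library leave its group with 1, which is taken to vary like the other group. Depth limits the members with few counts, among them GREM1, TGFB2, BMP2, BMP4, INHBA, INHBB and ID4.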

Other observations

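Of the other receptors and co-receptors listed, 3 of 4 tested rose and 1 fell in 451Lu-R, and 4 of 6 rose and 2 fell in 1205Lu-R. Without ACVR1C, under 10 counts in every DMSO library of 1205Lu-R, 3 of 5 rose and 2 fell in that line. The TGF-β co-receptor endoglin (ENG) fell in both lines, from 44 and 44.9 CPM to 12.6 and 12.7 CPM in 451Lu-R (-1.83 ± 0.086, edgeR adjusted p = 1.31e-13) and from 145 and 153 CPM to 56.8 and 58.1 CPM in 1205Lu-R (-1.36 ± 0.047, adjusted p = 6.59e-17). NRP1 (neuropilin 1) fell in 1205Lu-R from 863 and 865 CPM to 253 and 246 CPM (-1.78 ± 0.029, adjusted p = 1.34e-22). ACVR1C, a type I receptor for activins and nodal, had 2 counts in each DMSO library of 1205Lu-R and 135 and 143 with corin. In 451Lu-R it rose from 13.1 and 14.9 CPM to 24.8 and 23.2 CPM (0.76 ± 0.10, adjusted p = 1.42e-06). RGMB and NEO1, a BMP co-receptor and its binding partner, rose in 451Lu-R by 1.20 ± 0.069 (adjusted p = 3.05e-12) and 0.87 ± 0.051 (adjusted p = 4.11e-12), and RGMA rose in 1205Lu-R by 2.79 ± 0.19 (adjusted p = 1.04e-11).

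Intracellular modulators were divided, with 13 risen and 10 fallen of 27 in 451Lu-R (median log2 fold change, 0.14) and 12 and 11 of 27 in 1205Lu-R (median, -0.02). PMEPA1, a TGF-β target that dampens the pathway, rose in 451Lu-R from 3.24 and 3.34 CPM to 77 and 79.3 CPM (4.54 ± 0.11, adjusted p = 1.63e-18). The acetyltransferase CREBBP, a SMAD coactivator, fell in both lines, by 1.20 (adjusted p = 2.07e-12) and 1.01 (adjusted p = 5.85e-14) on the log2 scale, and its relative EP300 fell in 1205Lu-R by 0.97 (adjusted p = 1.48e-13). The corepressor TGIF2 rose in 1205Lu-R from 2.35 and 1.76 CPM to 7.49 and 9.05 CPM (2.02 ± 0.23, adjusted p = 4.52e-08).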
